A study of Mus musculus with 16 samples.

Results

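The genes described here are 10 neuropeptide and neuromedin genes chosen by symbol, 9 peptide precursors (Gal, Nts, Tac1, Penk, Cck, Vip, Adcyap1, Grp and Nmu) and 1 receptor (Nmbr), and every probe annotated to them was taken. Of the 10 genes, 9 had a probe in the tables used here, 11 probes in all out of 25697 on the array, and each of the 9 had a probe bright enough to be tested among 10244 tested genes. Penk, the enkephalin precursor, was not analysed here. The RNA came from the hypothalamus of female F1 C57BL/6J mice aged 21 days, dissected by fixed distances from the third ventricle and the base of the brain. In the control group (CON, 8 mice) the nursing mother was fed ad libitum, and in the lactation undernutrition group (LUN, 8 mice) her ration was 50% of what control mothers ate. Both groups had the same genotype and the same number of pups per nest, and the comparison asks which hypothalamic transcripts differ at weaning after undernutrition while suckling. Each mouse gave 1 Illumina MouseRef-8 array, 4 of each group on each of 2 BeadChips, and arrays are named by group and replicate number.

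Neuropeptides are cut from longer precursors in the regulated secretory pathway, stored in dense-core vesicles and released to act on G protein-coupled receptors. Hypothalamic neurons use them to control feeding, fluid balance, temperature, pituitary secretion and arousal. Some precursors of this group, such as galanin, neurotensin and neuromedin U, are made in the hypothalamus far more than in the brain tissue just above it. Others, such as cholecystokinin, are abundant in cortex and thalamus too. In bulk tissue, fewer cells of a type and less RNA per cell cannot be told apart.

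Mean array signal ranged from 394 to 516 in CON and from 351 to 414 in LUN, and 14540 to 15384 probes per array were detected. On both BeadChips the CON arrays lay before the LUN arrays, so position and group cannot be told apart. The F1 data came from fewer CON litters than there were CON arrays, so CON littermates must be among the 8 CON mice if the same litters supplied them. No source used here ties a mouse to its litter, and the p-values treat mice as independent, which can make them too small where mice share one. The arrays CON 4 and CON 8 stood apart from the other 6 CON arrays in a score of 14 thalamus markers (the mean log2 deviation of these genes from their mean over the 16 arrays). The score was 0.73 on CON 4 and 0.35 on CON 8, between -1.27 and -0.35 on the other 6 CON arrays, and between 0.27 and 0.82 on the LUN arrays. Results are therefore given with and without these 2 arrays. The 2 arrays were picked after the data were seen, as the CON arrays whose score lay within the LUN range. For genes that follow this score, leaving them out widens the difference between groups and lowers the p-value by construction. The values, counts and p-values without them are therefore a description only. Of 15 transcription factors listed as hypothalamus markers, 13 had a probe, and Otp, Sim1, Nhlh2 and Hmx2 were detected on no array, whereas the hypothalamic peptides Hcrt, Pmch, Oxt, Avp and Trh were detected on all 16.

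Cck and Nmbr were higher in LUN, by 2.26-fold and 1.91-fold, and Nmu and Gal were lower, by 1.54-fold and 1.38-fold. Tac1, Nts, Adcyap1, Grp and Vip did not pass the test. Over all genes tested, 7.17% were higher and 8.59% lower in LUN at an adjusted p under 0.05 (limma with Benjamini-Hochberg adjustment over all tested probes), against 2 and 2 of the 9 genes here. With the added requirement of a 1.5-fold change, 0.84% of all genes were higher and 0.547% lower, against 2 (Cck and Nmbr) and 1 (Nmu) of these 9. In none of the 9 did the CON and LUN ranges separate, where 2.25% of all genes did. Without CON 4 and CON 8, the ranges separated for 4 of the 9 (Cck, Nmbr, Nmu and Gal), against 7.22% of all genes. In that comparison 6 of the 9 passed the adjusted p, 2 higher and 4 lower, against 9.43% of all genes higher and 11.8% lower. The genes were chosen with earlier results of these data known, so all these counts are a description only.

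**Figure D1:**
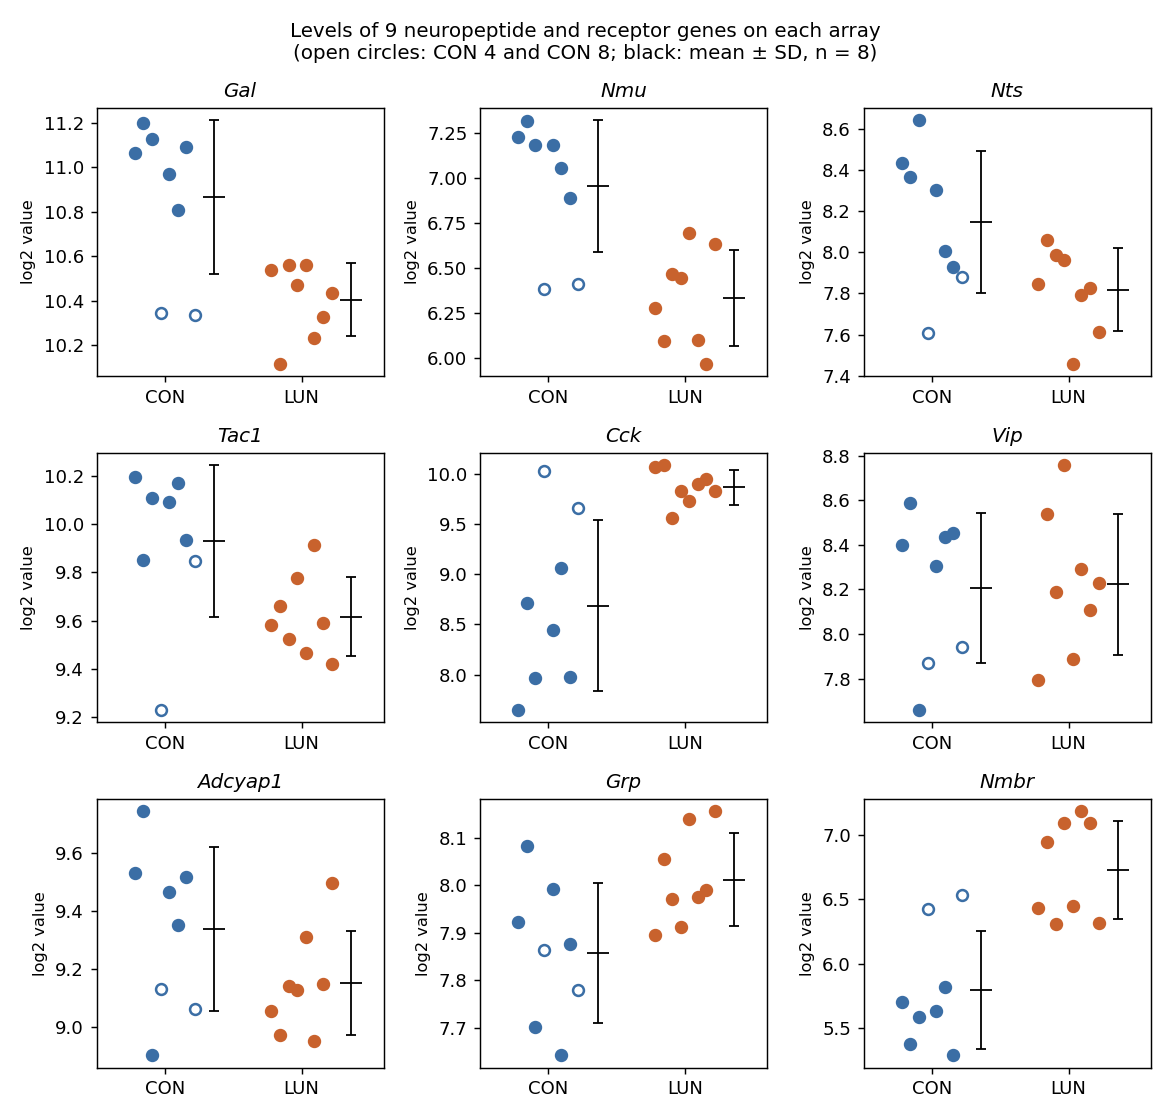
Background-corrected, quantile-normalized log2 value of each gene on each array (1 point per mouse, 8 CON in blue and 8 LUN in orange; open circles are CON 4 and CON 8), with the mean and SD of each group in black. For Cck, Nmbr, Gal and Nmu the open CON circles lie among the LUN points and the other 6 CON arrays lie outside the LUN range.

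Gal encodes galanin, a peptide of preoptic, dorsomedial, arcuate and lateral hypothalamic neurons that is linked to feeding, sleep and hormone release. On the CON arrays its log2 value had a lowest of 10.34, a median of 11.02 and a highest of 11.20, and on the LUN arrays 10.12, 10.45 and 10.56. The groups overlapped only through CON 4 and CON 8, both at 10.34, since the other 6 CON arrays read 10.81 or more. The mean was 10.87 ± 0.35 in CON and 10.41 ± 0.17 in LUN (SD, n = 8), and Gal fell by 0.46 on the log2 scale (SE 0.12, 95% confidence interval -0.72 to -0.20, limma adjusted p = 0.0176), or 27.4%. The fall was 0.51 on BeadChip 1 and 0.41 on BeadChip 2. Without CON 4 and CON 8 it was 0.64 (SE 0.08, adjusted p = 6.9e-05).

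Nmu encodes neuromedin U, a peptide that reduces food intake in rodents and acts in the brain mainly through the receptor encoded by Nmur2. Its lowest, median and highest log2 values were 6.38, 7.12 and 7.32 in CON and 5.97, 6.36 and 6.70 in LUN. CON 4, at 6.38, and CON 8, at 6.41, again lay within the LUN range, whereas the other 6 CON arrays were at 6.89 or above. The mean fell from 6.96 ± 0.37 in CON to 6.34 ± 0.27 in LUN (SD, n = 8), a change of -0.62 (SE 0.15, 95% confidence interval -0.93 to -0.32, limma adjusted p = 0.0083). This is a fall of 35.0%, and it had the same sign on BeadChip 1 (-0.71) and BeadChip 2 (-0.54). Leaving out CON 4 and CON 8 gave -0.81 (SE 0.11, adjusted p = 0.000154). Nmu lay just past 1.5-fold, and it fell under that line without background correction (-0.44) and with an offset of 50 (-0.47).

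Lactotrophs of the pituitary also make galanin, and RNA of pituitary markers was detected on some arrays. Of 7 pituitary markers with a probe, Fshb and Lhb were detected on no array, Gh on 4 CON arrays and 1 LUN array, Prl on 3 CON arrays and 0 LUN arrays, Tshb on 1 CON array and 0 LUN arrays, and Pitx1 on 0 CON arrays and 2 LUN arrays. The only one bright enough to be tested, Cga, which encodes the shared subunit of the glycoprotein hormones, had a change of -0.82 that did not pass (limma adjusted p = 0.0514). Without CON 4 and CON 8, Cga changed by -1.15 and passed as lower. Its deviation from its mean over the 16 arrays ran from 0.27 to 1.37 on the 6 CON arrays other than CON 4 and CON 8, and from -1.06 to 0.47 in LUN. The part of pituitary RNA in the Gal and Nmu results was not tested.

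Nts encodes neurotensin, a peptide that lowers feeding and body temperature and modulates dopamine neurons. Its brighter probe read 7.61, 8.16 and 8.64 in CON (lowest, median and highest log2 values) and 7.46, 7.84 and 8.06 in LUN, and the ranges overlapped widely. The change was -0.33 (SE 0.13, limma adjusted p = 0.096), with -0.30 and -0.36 on the 2 BeadChips. Without CON 4 alone it was -0.40 (adjusted p = 0.0242), and without CON 4 and CON 8 it was -0.46 (SE 0.11, adjusted p = 0.00976), so the call depends on those arrays. The dimmer Nts probe, detected on 8 CON and 6 LUN arrays, changed by -0.16 (SE 0.09, adjusted p = 0.219).

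Tac1 encodes the precursor of substance P and neurokinin A and is expressed in the striatum as well as the hypothalamus. Its log2 values had a lowest of 9.23, a median of 10.01 and a highest of 10.20 in CON and 9.42, 9.58 and 9.91 in LUN. The lowest value of all 16 belonged to CON 4, and the next lowest CON array, CON 8, read 9.85. The change of -0.31 (SE 0.12, 95% confidence interval -0.55 to -0.07) did not pass (limma adjusted p = 0.0755). It passed without CON 4, at -0.41 (adjusted p = 0.00214), and without CON 4 and CON 8, at -0.44 (SE 0.08, adjusted p = 0.00119).

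Cck encodes cholecystokinin, a satiety peptide of the gut that is also among the most abundant peptides of the cerebral cortex and is made in thalamic relay neurons and in several hypothalamic nuclei. The CON arrays read 7.65, 8.71, 7.97, 10.02, 8.45, 9.07, 7.97 and 9.66 on the log2 scale, in the order CON 1 to CON 8. The LUN arrays read 10.06, 10.08, 9.56, 9.83, 9.73, 9.90, 9.95 and 9.83 in the same order. The CON arrays were spread far more widely than the LUN arrays, and the highest CON values, from CON 4 and CON 8, lay inside the LUN range of 9.56 to 10.08. The mean rose from 8.69 ± 0.85 to 9.87 ± 0.17 (SD, n = 8), by 1.18 (SE 0.27, 95% confidence interval 0.61 to 1.75, limma adjusted p = 0.00774). The rise was 1.30 on BeadChip 1 and 1.06 on BeadChip 2. Without CON 4 and CON 8 it was 1.56 (SE 0.18, adjusted p = 2.8e-05).

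Vip encodes vasoactive intestinal peptide, which synchronizes neurons of the suprachiasmatic nucleus and marks a class of cortical interneurons. Its brighter probe ranged from 7.66 to 8.59 in CON (median 8.35) and from 7.79 to 8.76 in LUN (median 8.21), and the groups overlapped almost entirely. The change was 0.02 (SE 0.15, 95% confidence interval -0.29 to 0.33, limma adjusted p = 0.96), its sign differed between BeadChip 1 (0.19) and BeadChip 2 (-0.16), and it was -0.27 without normalization between arrays. The second Vip probe was detected on no array and has no value here.

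Adcyap1 encodes PACAP, a peptide of the ventromedial and paraventricular nuclei that is also made in cortex and thalamus. It ranged from 8.90 to 9.75 in CON (median 9.41) and from 8.95 to 9.50 in LUN (median 9.13). The LUN values lay within the CON range, and the change of -0.19 did not pass (SE 0.11, 95% confidence interval -0.42 to 0.04, limma adjusted p = 0.264), nor did it without CON 4 and CON 8 (-0.27, adjusted p = 0.105).

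Grp encodes gastrin-releasing peptide, which acts in the suprachiasmatic nucleus and is also made in cortex and amygdala. It had the narrowest spread, from 7.64 to 8.08 in CON (median 7.87) and from 7.90 to 8.16 in LUN (median 7.98). The lowest LUN array lay above 5 of the 8 CON arrays, and the change was 0.15 (SE 0.06, 95% confidence interval 0.02 to 0.29, limma adjusted p = 0.111). Leaving out CON 4 and CON 8 hardly moved it (0.14, adjusted p = 0.172), but without normalization between arrays, which shifts the median of all tested probes by -0.25, it was -0.13.

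Nmbr encodes the receptor of neuromedin B, a relative of gastrin-releasing peptide that is linked to satiety and smooth muscle contraction. Its log2 values had a lowest of 5.29, a median of 5.67 and a highest of 6.54 in CON, and 6.31, 6.70 and 7.19 in LUN. As for Cck, CON 4 (6.42) and CON 8 (6.54) were the only CON arrays inside the LUN range, the other 6 reading 5.82 or less. The mean rose from 5.80 ± 0.46 to 6.73 ± 0.38 (SD, n = 8), by 0.93 (SE 0.19, 95% confidence interval 0.53 to 1.33, limma adjusted p = 0.00369), with 0.92 and 0.94 on the 2 BeadChips. Without CON 4 and CON 8 the rise was 1.16 (SE 0.15, adjusted p = 0.000119). Nmb, which encodes the ligand of this receptor, changed by 0.04 (SE 0.09, adjusted p = 0.825).

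**Figure D2:**
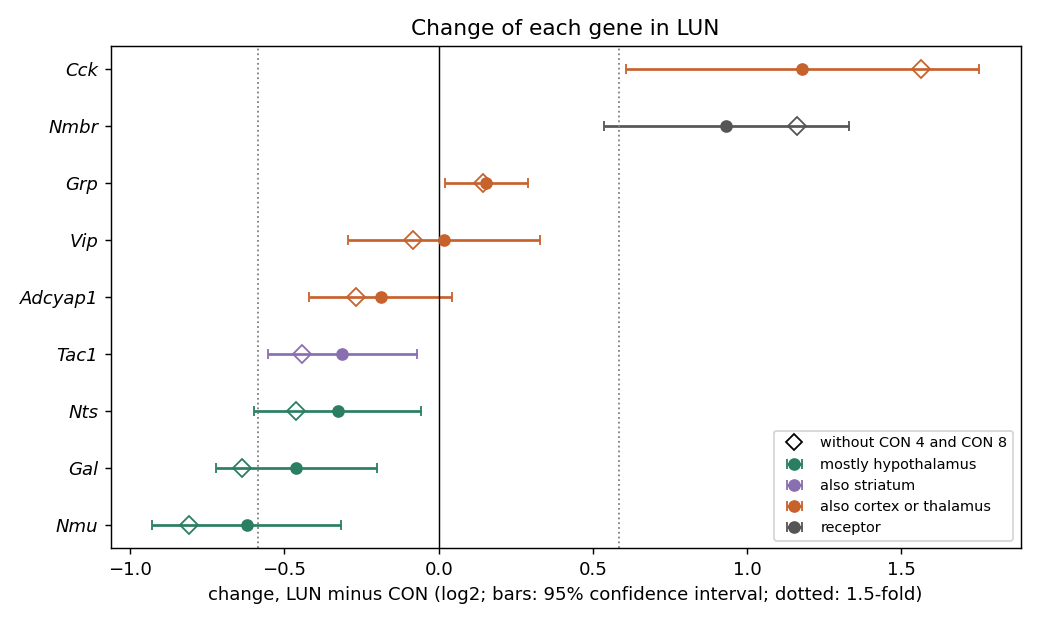
Change of each gene (LUN minus CON, log2) with its 95% confidence interval from limma over 16 arrays, coloured by the class assigned to each gene. Diamonds are the changes without CON 4 and CON 8, and dotted lines mark 1.5-fold. The precursors classed as made mostly in the hypothalamus lie below 0 and Cck and Nmbr lie above it. Leaving out CON 4 and CON 8 moves the outer genes further from 0.

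Set side by side, the 3 precursors classed as made mostly in the hypothalamus (Gal, Nts and Nmu) had a median change of -0.46, with a range of -0.62 to -0.33. The 4 precursors classed as also made in cortex or thalamus (Cck, Vip, Adcyap1 and Grp) had a median of 0.09 and a range of -0.19 to 1.18. The median of all 10244 tested genes was -0.01. Within that second class Cck stood alone, since Vip, Adcyap1 and Grp lay between -0.19 and 0.15 and none passed the test. Without CON 4 and CON 8 the medians were -0.64 and 0.03, and -0.02 over all genes. Tac1, classed as also made in the striatum, changed by -0.31. The classes were assigned to the genes and not measured in these data, so setting them side by side is a description only. Of the 9 genes, 4 had a mean change above 0 and 5 below, and 8 kept their direction on both BeadChips, the exception being Vip.

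The sequences just before the transcription start of Gal, Nmu and Cck are shown because these 3 precursors passed the test, Cck in the opposite direction to the other 2. They are the 150 bases before the start annotated by RefSeq on GRCm38.p6, all from the minus strand, at chr19:3414545-3414694 for Gal, chr5:76363778-76363927 for Nmu and chr9:121495695-121495844 for Cck. Capitals mark TGACG, the core of the cAMP response element, and CACGTG, an E-box, each searched on both strands (TGACG reads CGTCA on the other strand).
Gal: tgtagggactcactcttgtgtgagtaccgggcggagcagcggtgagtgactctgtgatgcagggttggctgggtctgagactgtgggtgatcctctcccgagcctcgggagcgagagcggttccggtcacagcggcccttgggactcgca
Nmu: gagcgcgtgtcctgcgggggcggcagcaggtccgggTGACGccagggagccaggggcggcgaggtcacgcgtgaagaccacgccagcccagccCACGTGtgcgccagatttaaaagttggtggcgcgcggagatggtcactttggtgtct
Cck: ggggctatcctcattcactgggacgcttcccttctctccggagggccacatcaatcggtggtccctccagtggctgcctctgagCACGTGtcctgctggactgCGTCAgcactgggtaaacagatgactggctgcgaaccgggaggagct

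Cck, which was higher in LUN, and Nmu, which was lower, both carried the pair of motifs in this stretch, with TGACG at 47 and CACGTG at 66 bases before the start in Cck, and at 114 and 57 bases in Nmu. Tac1, whose change did not pass, also carried both, with CACGTG at 61 and TGACG at 43 and 197 bases before its start. In the 150 bases, TGACG occurred in 13.3% and CACGTG in 4.3% of 32851 mouse promoters, and the 2 letter strings do not overlap each other in any of these genes. The share of promoters that held both was not computed. Gal and Nmbr had neither motif within 250 bases of the start. The letters TATAAA, which 12.4% of promoters held in that span, were absent there from Gal, Nmbr, Nts, Tac1, Cck and Nmu. Vip had TATAAA at 30 bases and TGACG at 79. Nts had TGACG at 166 bases, and Adcyap1 had it at 91 bases before one annotated start and 242 before another. Within 250 bases, 17.8% of promoters held TGACG. The promoter of Grp was not searched. A match is only a run of letters and does not show that a factor binds there.

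Thalamus markers moved with Cck. Of the 15 listed, all had a probe and Plekhg1 was detected on no array. Of the 14 tested, 13 rose in LUN, against 7.17% of all genes, and Cbln1 did not pass. The median change was 1.11 (1.45 without CON 4 and CON 8). The list was chosen with earlier results of these data known, so the count is a description only. Synpo2 and Lef1 were detected on 2 and 3 CON arrays and on all 8 LUN arrays. Over the 8 CON arrays, Cck followed the thalamus score with Pearson r = 0.99 (exact permutation p = 4.96e-05 over 40320 orders, adjusted p = 0.00179 over 36 pairs of a gene, a score and a group) and Spearman rho = 0.98 (adjusted p = 0.0143). Among the 6 CON arrays left without CON 4 and CON 8, the 2 farthest from the median score, r was 0.97. Over the 8 LUN arrays r was 0.57 (exact permutation, adjusted p = 0.262). The part of thalamic RNA in the Cck result was not tested.

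**Figure D3:**
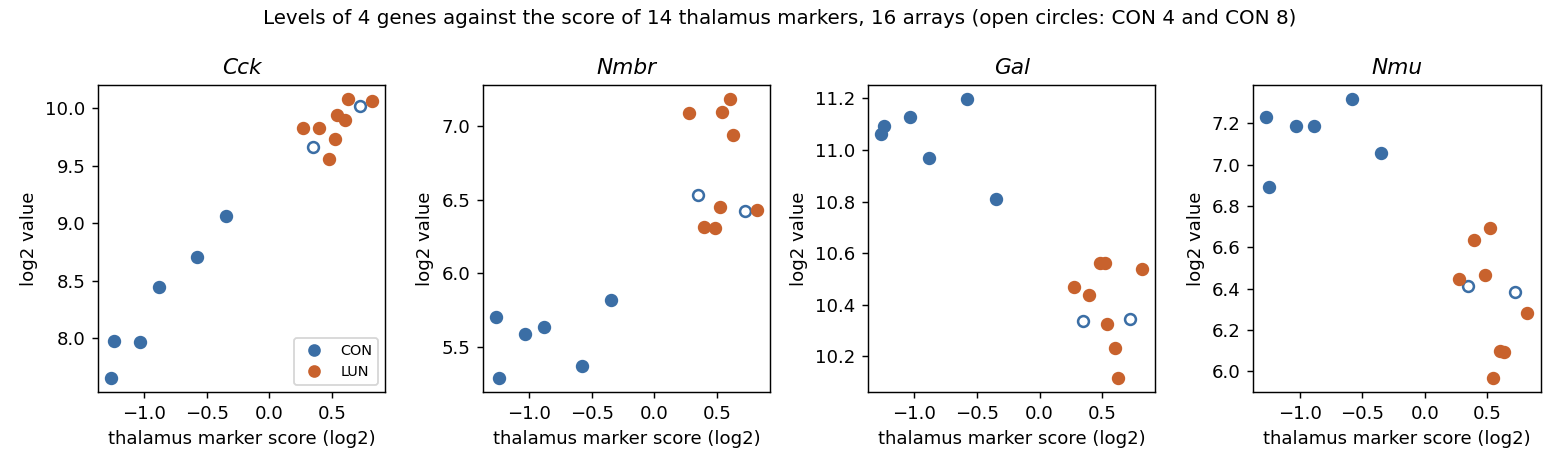
Log2 value of Cck, Nmbr, Gal and Nmu on each of 16 arrays against the score of 14 thalamus markers on the same array (CON in blue, LUN in orange, open circles CON 4 and CON 8). Cck climbs along the score within the CON arrays, whereas Nmbr, Gal and Nmu form a set of 6 CON arrays at low scores and a set of the other 10 arrays at high scores.

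For Nmbr, Gal and Nmu the relation to the score within CON rested on CON 4 and CON 8. In that group, r with the thalamus score was 0.87 for Nmbr and 0.33 without CON 4 and CON 8, -0.91 for Gal and -0.46 without them, and -0.81 for Nmu and 0.21 without them. None of these passed the exact permutation test after adjustment (adjusted p = 0.0649, 0.0649 and 0.0778). No gene passed against the score of 6 hypothalamic transcription factors, which ran from 0.03 to 0.31 on the 6 other CON arrays, -0.28 on CON 4, -0.15 on CON 8 and -0.29 to 0.16 in LUN. Of these 6 factors, 0 passed the test in either direction (median change -0.17). Without CON 4 and CON 8, 3 of the 6 fell, against 11.8% of all genes. Of 5 cortex markers tested, Slc17a7 rose by 2.20 and Nrn1 by 0.57, and Neurod2, Tbr1 and Fezf2 did not pass, 2 of 5 against the 7.17% of all genes that were higher. The list had a score of -0.70 to 0.12 in CON against 0.00 to 0.80 in LUN, with Neurod6 detected on no array. Of 8 striatum markers only Pde1b rose, by 0.36, and of 3 habenula markers Slc5a7 fell by 0.38. Gpr151, a habenula marker detected on 6 CON and 8 LUN arrays, had a change of 1.16 that did not pass (limma adjusted p = 0.178) and rose by 1.72 without CON 4 and CON 8 (adjusted p = 0.0151). The habenula score was 1.12 on CON 4 and reached 1.20 in LUN, on LUN 7. All 5 red cell markers tested fell (median -1.14), against 8.59% of all genes.

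Among the 9 genes themselves, 72 correlations were computed within groups and 3 passed an adjusted p under 0.05 by Pearson's r, all in CON and none of them by Spearman's rho. Vip and Adcyap1 varied together in CON (r = 0.95, rho = 0.86, exact permutation adjusted p = 0.042 and 0.223), also without CON 3 and CON 4, the 2 arrays farthest from the Vip median (r = 0.91). Nts and Nmu did so too (r = 0.86, rho = 0.90, exact permutation adjusted p = 0.0458 and 0.164, and r = 0.84 without CON 3 and CON 4). Gal and Nmbr varied in opposite directions (r = -0.97, rho = -0.90, exact permutation adjusted p = 0.042 and 0.164), with r = -0.75 without CON 4 and CON 8.

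The genes most like each changed gene were ranked by Pearson r over 16 arrays after the group means were subtracted, among 10243 genes and as a description only. For Cck they were Tcf7l2 (0.98), Ramp3 (0.98), Prkcd (0.97), Ntng1 (0.97) and Slitrk6 (0.96), of which the first 4 are on the thalamus list. For Gal they were Sgsm1 (0.95), Gaa (0.95), Hcrt (0.94), Pmch (0.94) and Minar2 (0.92), where Hcrt and Pmch encode the orexin and melanin-concentrating hormone precursors of lateral hypothalamic neurons. For Nmu they were Ccnq (0.92), H2-M3 (0.92), Hcrt (0.91), Rgs10 (0.91) and Krt17 (0.90). For Nmbr they were Enc1 (0.97), Csrnp3 (0.92), Spata2l (0.92), Kcnk1 (0.91) and Sv2b (0.90). Without CON 4 and CON 8 these 20 values of r lay between 0.78 (Hcrt with Nmu) and 0.94 (Enc1 with Nmbr). Because the group means were subtracted, the ranking does not measure a shared LUN change. Gaa, Minar2, Ccnq, H2-M3, Krt17, Enc1, Csrnp3 and Kcnk1 did not pass the test of LUN against CON, and the other genes ranked here did.

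Of 18 receptors of these peptides listed, 17 had a probe and 9 were tested. Among the 9, 1 was higher, 2 were lower and 6 did not pass, against 7.17% of all genes higher and 8.59% lower. The median change was -0.13. The counts were again 1 higher and 2 lower without CON 4 and CON 8, against 9.43% and 11.8% of all genes, with a median of -0.19. Ntsr2, an astrocyte-rich neurotensin receptor, fell by 0.38 (SE 0.06, limma adjusted p = 0.000844), from 11.40 ± 0.13 to 11.02 ± 0.11 (SD, n = 8). Oprk1, the kappa opioid receptor, fell by 0.19 (adjusted p = 0.0293). Sort1, the sorting receptor that binds neurotensin, rose by 0.17 on its brightest probe (adjusted p = 0.0439). Other tested Sort1 probes changed by 0.23 (limma adjusted p = 0.0188), 0.11 (0.171) and 0.15 (0.266). Galr2, Galr3 and Nmur1 were detected on no array and Nmur2, the brain receptor of neuromedin U, on 2 CON arrays and 1 LUN array, so their change could not be measured.

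Of 7 sister genes of the family, 5 were tested and none passed (median -0.20). Without CON 4 and CON 8, 3 of the 5 passed as lower, against 11.8% of all genes. Nms, the neuromedin S precursor of the suprachiasmatic nucleus, was nearest to the threshold at -0.32 (limma adjusted p = 0.0543). Of 13 tested genes for precursor processing and dense-core vesicles, 1 rose, 2 fell and 10 did not pass (median -0.04). Over all genes, 7.17% rose and 8.59% fell. Ptprn2, a dense-core vesicle protein detected on 2 CON and 8 LUN arrays, rose by 0.41 (adjusted p = 0.022), a difference measured against a group mostly not above background. In contrast, Pcsk1n, an inhibitor of the convertase PC1/3, fell by 0.25 (adjusted p = 0.0109) and Qpct, which makes the N-terminal pyroglutamate of peptides such as neurotensin, fell by 0.22 (adjusted p = 0.0458). Of 6 peptide-degrading enzymes tested, only Dpp4, detected on 8 CON and 7 LUN arrays, passed, falling by 0.42 (adjusted p = 0.00862).

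The other hypothalamic peptides, a list of 14 genes of which 12 were tested, moved in the direction of Gal and Nmu, with 8 lower, 0 higher and 4 not past the test (median -0.52). The same counts were found without CON 4 and CON 8. Over all genes 8.59% were lower, and 11.8% without these 2 arrays. This list too was chosen with earlier results of these data known, so the counts are a description only. The changes were -0.89 for Oxt (oxytocin), -0.76 for Avp (vasopressin), -0.69 for Hcrt, -0.61 for Trh, -0.44 for Pmch, -0.42 for Ghrh and -0.78 for Cartpt. Pomc was detected on 8 CON and 0 LUN arrays and was at least 1.53-fold lower in LUN, taking for each LUN array the lowest value among its detected probes. The score of this list ran from 0.22 to 0.54 on the 6 CON arrays other than CON 4 (-0.20) and CON 8 (-0.17), and from -0.44 to -0.03 in LUN. Not every gene of the list followed this score. Cartpt read 10.32 on CON 4 and 10.31 on CON 8, above its LUN range of 9.33 to 9.78. Pomc read 5.28 and 4.89 on these arrays, below the 5.31 to 5.98 of the other 6 CON arrays. Its LUN values, none of them detected, reached 4.85. Kiss1, too dim to be tested, was detected on 6 CON and 0 LUN arrays. The 4 genes not past the test were Sst (-0.01), Npy (0.12), Crh (-0.16) and Ucn3 (-0.16), with limma adjusted p = 0.966, 0.525, 0.401 and 0.367. Crh and Ucn3 were each detected on 5 CON and 3 LUN arrays.

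**Figure D4:**
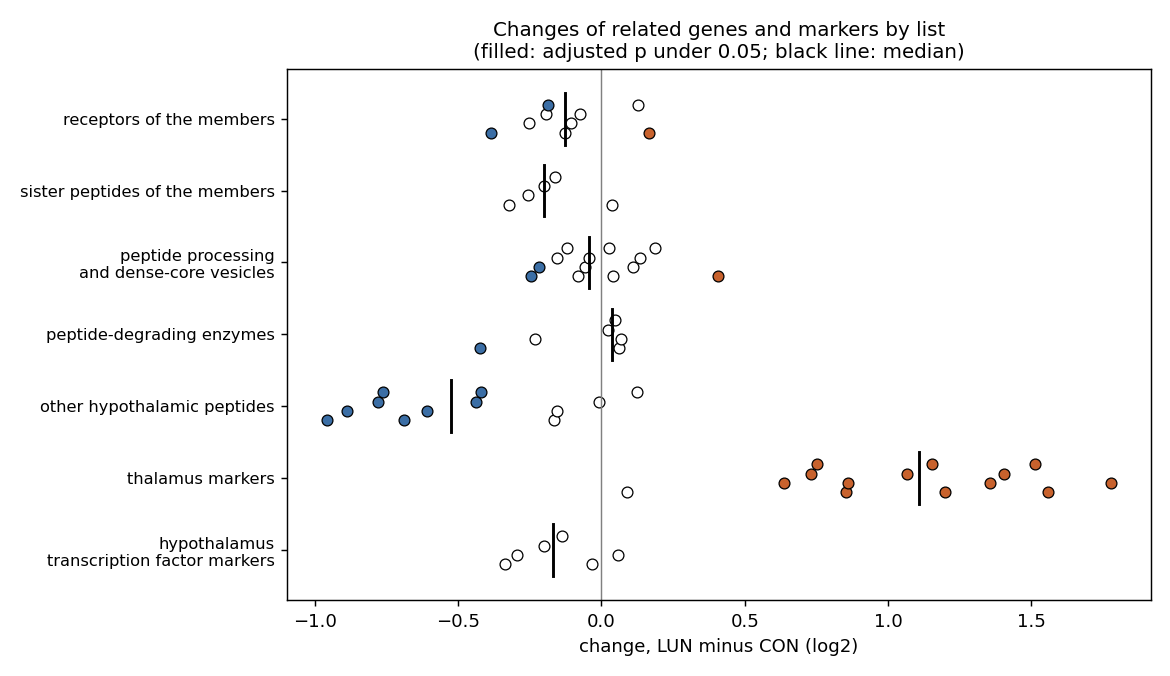
Change of each tested gene (LUN minus CON, log2) in 5 lists of peptide-related genes and 2 marker lists, with filled points past an adjusted p under 0.05 (orange higher, blue lower in LUN) and a black line at the median. The thalamus markers lie at a median of 1.11, the other hypothalamic peptides at -0.52, and the receptor, processing and enzyme lists near 0.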

How the data were processed

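The authors deposited intensity values, averaged over the beads of a probe in GenomeStudio, without normalization between arrays, and beside each a detection p-value deposited by the authors that sets the signal against negative controls. They also deposited log2 values, quantile-normalized in GeneSpring GX 10, with each probe centred on its median over the 16 arrays, and these served as an alternative. From the intensities, log2 values were computed with neqc of limma 3.58.1 in R 4.3.3 (background from the detection p-values, offset 16, quantile normalization). Of 25697 probes, 14870 with a detection p-value under 0.05 on at least 8 arrays were tested with lmFit and eBayes, group being the only term. A gene was represented by its brightest tested probe. Symbols came from the platform annotation (23978 probes with 1 symbol, 1719 without, 16 symbols not matched by Entrez ID). The code was tested on simulated data.

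The members and gene lists were chosen with earlier results of these data known, so counts over them are a description only. All members were named, as were genes of the other lists past the adjusted p and the 5 genes most like each changed member. Genes named beyond this rule (such as Nmb, Nms, Nmur2, Sst, Npy and the marker genes not detected) were chosen after their values were seen. Correlations used exact permutation tests, two-sided. The alternatives were other detection filters, scalings, background corrections, array weights, BeadChip settings, an unmoderated t-test, a replicate block and arrays left out. Replicate numbers did not pair the arrays (same-number r from -0.29 to 0.10). For arrays, precision is limited by their number.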

Additional observations from a re-analysis of the deposited data

Results flagged for a closer look

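The Tac1 value of CON 4, at 9.23 on the log2 scale, stood far below the other CON arrays, the nearest of which read 9.85. The gap was 0.638 of the range of the group, above the 95% critical value of Dixon's test for 8 arrays. It was the only one of 22 groups (11 probes in CON and in LUN) with such an array, and chance alone is expected to mark about 1 group in 20. On the same array the score of striatum markers, a region that also makes Tac1, was -0.54, against -0.78 to 0.42 on the other CON arrays and -0.26 to 0.54 in LUN.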

How the results depend on the processing

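Over all 14870 tested probes, 122 were higher and 78 lower in LUN at an adjusted p under 0.05 and 1.5-fold. The counts were 51 and 444 without normalization between arrays, 61 and 27 without background correction, 65 and 32 with an offset of 50, 210 and 174 with the deposited log2 values, 2 and 5 on BeadChip 1 alone, 34 and 54 on BeadChip 2 alone, 236 and 92 without CON 4 and CON 8, and 103 to 178 and 68 to 91 with 1 array left out. Cck, Nmbr, Nmu and Gal kept their direction under every alternative, and their adjusted p passed under all except single BeadChips, where 4 arrays a group remain. Nmu fell under 1.5-fold without background correction (-0.44), with an offset of 50 (-0.47), on BeadChip 2 alone and without CON 1 (-0.584), CON 2 (-0.57) or LUN 7 (-0.57). On BeadChip 1 and BeadChip 2 alone, Cck was 1.30 and 1.06 (adjusted p = 0.176 and 0.0989), Nmbr 0.92 and 0.94 (0.117 and 0.112), Nmu -0.71 and -0.54 (0.126 and 0.19) and Gal -0.51 and -0.41 (0.211 and 0.178), all by limma. With 1 array left out, Cck ran from 1.03 to 1.37, Nmbr from 0.86 to 1.04, Nmu from -0.70 to -0.57, Gal from -0.54 to -0.41, Tac1 from -0.41 to -0.27, Nts from -0.40 to -0.26, Adcyap1 from -0.25 to -0.13, Grp from 0.12 to 0.19 and Vip from -0.0615 to 0.0782. Tac1 and Nts passed only without CON 4 among these. They also passed with array weights (-0.38 and -0.36), without normalization between arrays (-0.60 and -0.61) and without CON 4 and CON 8 (-0.44 and -0.46), and Adcyap1 passed without normalization (-0.47). Without normalization the median of all probes shifts by -0.25, and there Grp (-0.13) and Vip (-0.27) changed sign. Vip also did so with median scaling (-0.00283), array weights (-0.0641), BeadChip 2 alone (-0.16) and without CON 4 and CON 8 (-0.084). Nmbr was 0.59 without background correction and 1.23 in the deposited values. With the replicate number as a block the counts were 109 and 70, and none of the 9 genes changed its side of the adjusted p. The causes were not tested, and dim probes limit what can be said of Nmbr, Nmur1, Nmur2 and Galr2.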
